A study of Mus musculus with 8 samples.

Results

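Of the 37273 genes annotated on the assembled mouse chromosomes, 10 transcription factors with known roles in the dendritic and myeloid lineages are described here: Spi1, Cebpa, Cebpb, Runx1, Runx3, Tcf4, Id2, Zbtb46, Bcl6 and Klf4. They are a list of names, and no measured value enters the rule that picks them. The list was nonetheless chosen with earlier results of these data known. At each gene 2 readouts were taken from the peak lists, the NFATc2 binding sites whose summit lay within 100 kb of a transcription start site (TSS), and the peaks of H3K4me3 (trimethylation of histone H3 at lysine 4) that overlapped the gene or lay within 1 kb of a TSS. Positions are in the mouse genome build mm9, with gene models of GENCODE vM1, in which Spi1 carries its older name Sfpi1.

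Dendritic cells descend from haematopoietic progenitors under a small set of transcription factors. PU.1, encoded by Spi1, is an ETS factor that opens myeloid enhancers, the C/EBP and RUNX factors act with it in myeloid progenitors and in mature cells, and the balance between the E protein encoded by Tcf4 (E2-2) and its inhibitor Id2 separates plasmacytoid from conventional dendritic cells. H3K4me3 is laid down around the start sites of active or poised genes, and genes that define a cell type often carry broad domains of the mark. NFATc2, called NFAT1 in the sample labels, is a calcium-dependent factor that calcineurin releases into the nucleus. It often binds next to AP-1.

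All cells were D1, a long-term splenic dendritic cell line of C57BL/6 mice that is kept growing with a supernatant holding GM-CSF. NFATc2 was mapped in D1 cells carrying a stable V5-tagged NFATc2, 30 min after 10 µg/ml curdlan, a fungal β-glucan that activates the receptor dectin-1, so the sites are those of a tagged, added protein and no unstimulated or FK506-treated NFATc2 list was analysed here. H3K4me3 was mapped in non-treated D1 cells (NT), after curdlan at 10 µg/ml for 2 h, and after curdlan with FK506, an inhibitor of calcineurin, for 2 h. There was 1 ChIP library for each condition, with its own input. With no replicates there is no test between conditions, and all intervals given are 95% intervals that cover counting error only.

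The NFATc2 library held 14377535 tags (mapped reads without duplicates) and its list 9438 peaks, and the H3K4me3 libraries held 16662316 to 21289349 tags and 14872 to 15799 peaks. Of the H3K4me3 tags, 57.9% lay in peaks in NT, 52.8% after curdlan and 51.3% after curdlan with FK506. H3K4me3 peaks were present in all 3 conditions at 8 of 8 dendritic and myeloid marker genes (Itgax, Cd74, H2-Aa, Clec7a, Csf1r, Csf2ra, Itgam and Ptprc). No peak was listed at the erythroid markers (0 of 2) or fibroblast markers (0 of 3). A peak was listed at 1 of 3 T cell markers, Lck, with 19.7 CPM in NT. CPM are the tags in the peaks of a gene per 1000000 tags of the library. The B cell genes Cd79a (71.0 CPM in NT) and Pax5 (12.1) also had a peak, while Cd3e and Cd3g had none. The Cd79a value lay above the NT median of 47.1 over protein-coding genes with a peak. The mark is measured on bulk chromatin, so a larger share of marked cells and more mark per cell cannot be told apart.

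NFATc2 bound near 6 of the 10 genes and its sites were concentrated at 3 of them. Runx1 had 9 sites within 100 kb, Spi1 had 5, Runx3 had 4, Cebpb had 3, and Id2 and Bcl6 had 1 each. No site lay within 100 kb of Cebpa, Tcf4, Zbtb46 or Klf4. Over all annotated genes 49.2% had at least 1 site in the same window, and over protein-coding genes 55.3% did, so a share of 6 in 10 was close to the background. High numbers were less common: at least 4 sites were found at 10.3% of all genes, at least 5 at 5.79%, and at least 9 at 0.491%. Several of these genes have widely spaced start sites and therefore wider windows. Per 100 kb of window, Runx1 had 2.72 sites and Spi1 2.33, which placed them at the 96.9th and 94.4th percentile of protein-coding genes, and Runx3 had 1.71 (89.2nd percentile).

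**Figure D1:**
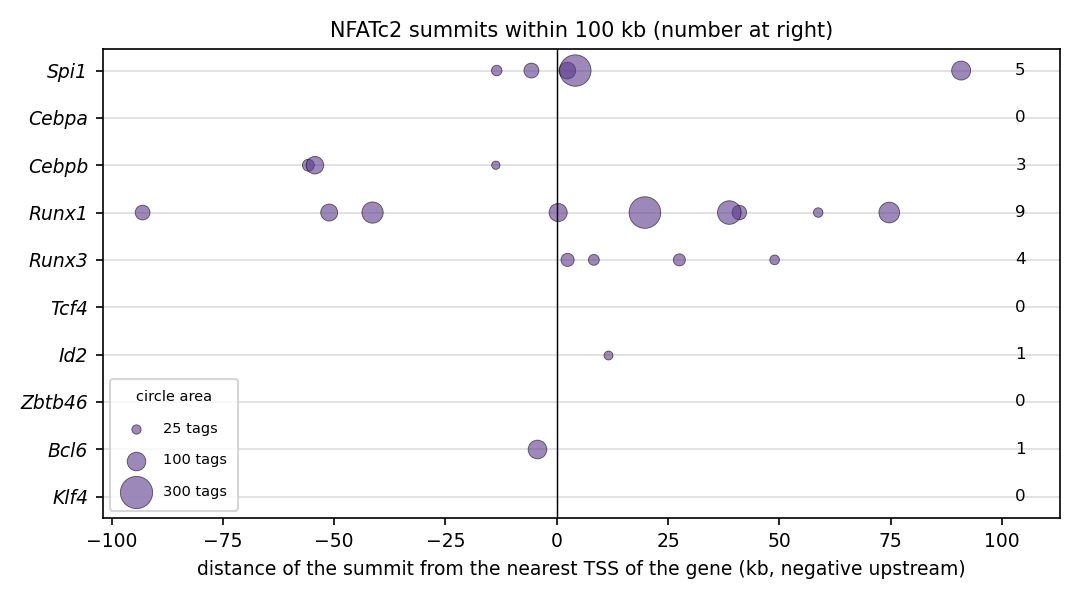
NFATc2 summits around the 10 genes after curdlan for 30 min, by distance in kb from the nearest TSS of each gene (horizontal axis), with circle area in proportion to the number of tags and the number of sites at the right. Runx1 and Spi1 hold 14 of the 23 sites and both of the largest, with 288 and 285 tags.

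The 23 sites had 20 to 288 tags, with a median of 64 against 63 over all 9438 sites. Their median fold enrichment over input was 15.62 against 13.36. A gene body held 17 of the sites, 16 in introns and 1 in an exon, and 6 were intergenic. For 17 sites the listed factor was also the gene with the nearest TSS. The other 6 lay nearer to Slc39a13, Nr1h3, Ube2v1, Gm14320 or Gm16801, and these include all 3 sites counted for Cebpb. Of the 23 sites, 8 (34.8%) lay inside an H3K4me3 peak in each condition, against 23.8%, 23.3% and 22.5% of all NFATc2 summits in NT, curdlan and curdlan with FK506.

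Bound sequences of 5 sites are shown, the tallest sites of Spi1 and Runx1 and other sites of Runx1, Runx3 and Bcl6. Each is 101 bases centred on the summit, plus strand of mm9, and capitals mark a match to the NFAT core (GGAAAA or its complement) or to the AP-1 motif (TGANTCA). Sites are numbered along the chromosome. They are Spi1 site 3 (chr2:90926680-90926780), Runx1 site 3 (chr16:92676036-92676136), Runx1 site 8 (chr16:92867639-92867739), Runx3 site 1 (chr4:134678950-134679050) and Bcl6 site 1 (chr16:23993392-23993492).
Spi1 site 3: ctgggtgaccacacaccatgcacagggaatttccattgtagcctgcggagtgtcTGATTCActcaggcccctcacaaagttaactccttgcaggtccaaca
Runx1 site 3: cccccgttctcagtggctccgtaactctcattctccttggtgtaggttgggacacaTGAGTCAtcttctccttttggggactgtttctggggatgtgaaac
Runx1 site 8: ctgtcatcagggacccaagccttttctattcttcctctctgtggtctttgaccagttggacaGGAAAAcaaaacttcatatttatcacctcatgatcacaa
Runx3 site 1: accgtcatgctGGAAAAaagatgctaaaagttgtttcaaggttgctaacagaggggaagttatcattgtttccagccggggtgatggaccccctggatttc
Bcl6 site 1: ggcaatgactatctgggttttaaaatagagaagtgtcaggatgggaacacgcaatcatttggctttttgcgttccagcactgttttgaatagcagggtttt
The tallest sites, Spi1 site 3 and Runx1 site 3, each held an AP-1 match, 7 and 9 bp from the summit, and no NFAT core. Runx1 site 8 and Runx3 site 1 held an NFAT core and no AP-1 match. The Bcl6 window as printed held neither. Runx1 site 6 (160 tags), the next tallest of the sites and not shown, held neither within 100 bp of its summit.

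Within 100 bp of the summit, on either strand, 7 of the 23 sites (30.4%) held GGAAAA, against 45.6% of all NFATc2 summits. TGANTCA was found at 7 sites (30.4%) against 21.8%, and both motifs together at 2 sites (8.70%) against 8.34%. The 2 sites with both were Spi1 site 5 and Runx1 site 4. Of the motifs of the factors themselves, GAGGAA, a core bound by PU.1 that shares its last bases with the NFAT core where more A follow, was present at 8 sites (34.8% against 40.6%). TGTGGT, bound by RUNX factors, was present at 7 (30.4% against 28.4%), and TTGCNNAA, bound by C/EBP factors, at 2 (8.70% against 9.05%). With 23 sites, 1 site is worth over 4 percentage points, and a match is a description of the letters only.

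At Spi1, 3 of the 5 sites lay in introns of the gene. Spi1 site 3, 4165 bp downstream of the first start site, held 285 tags at a fold enrichment of 38.85 (MACS p-value 1.9e-56), which put its tags at the 97.8th percentile of all NFATc2 sites. Spi1 site 2 (81 tags) lay 2374 bp downstream of the same start, inside an H3K4me3 peak. Spi1 site 4 (64 tags) lay 5691 bp upstream of the second group of start sites, outside the mark. Spi1 site 1 (32 tags) was 39 bp from the TSS of Slc39a13 in the neighbouring gene. Spi1 site 5 had 104 tags and the highest fold enrichment of all 23, 52.08, and lay 90.9 kb away in an intron of Nr1h3, which encodes the oxysterol receptor LXRα. It is nearer to the Nr1h3 start (3300 bp), and the list cannot assign it to either gene.

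At Runx1, 7 of the 9 sites lay in the gene body, which spans 225 kb. Runx1 site 3 had 288 tags (fold enrichment 38.27, MACS p-value 4.6e-56) and lay in an intron 19.8 kb downstream of the proximal start sites. Runx1 site 6 had 160 tags and a fold enrichment of 35.76 in the intron 38.8 kb downstream of the distal start. Runx1 site 8 (130 tags, fold enrichment 19.47) was intergenic, 41.4 kb upstream of the distal start, and Runx1 site 1 (123 tags) held 2 AP-1 matches. Runx1 site 7 lay in an exon 315 bp from the distal TSS with 95 tags but a fold enrichment of 6.04, in the lowest 1.36% of all sites. It was the only site of Runx1 inside an H3K4me3 peak. The remaining 4 sites had 26 to 83 tags.

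The 4 sites of Runx3 were weaker, with 50, 34, 42 and 27 tags in order along the chromosome. Runx3 sites 1 and 2, 2433 and 8337 bp downstream of the distal TSS, were both inside H3K4me3 peaks in every condition. Cebpb had sites of 41 and 89 tags beside Ube2v1, 55.8 and 54.3 kb upstream of Cebpb, both inside H3K4me3 peaks, and a site of 20 tags 13.7 kb upstream. The Bcl6 site had 101 tags and a fold enrichment of 9.67, 4504 bp upstream of the TSS and inside the H3K4me3 domain. The Id2 site had 23 tags and lay 11.6 kb downstream of the TSS. Of the genes with no site in the window, the nearest NFATc2 summit was 116 kb from Cebpa, 216 kb from Zbtb46, 244 kb from Klf4 and 415 kb from Tcf4.

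Nearly all of these factors carried H3K4me3, and most of them much more than the usual gene. A peak was listed at 9 of the 10 in every condition, against 35.7% of all genes in NT, 35.5% after curdlan and 35.4% after curdlan with FK506 (51.4%, 51.2% and 51% of protein-coding genes). The median over the 9 was 191 CPM in NT, 162 after curdlan and 167 after curdlan with FK506, against 47.1, 43.5 and 42.4 over protein-coding genes with a peak. The median summed peak length was 8.70, 10.1 and 10.1 kb, against 3.23, 3.39 and 3.31 kb. Cebpb and Klf4 lay below the protein-coding median CPM in every condition, and the other 7 lay above it.

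**Figure D2:**
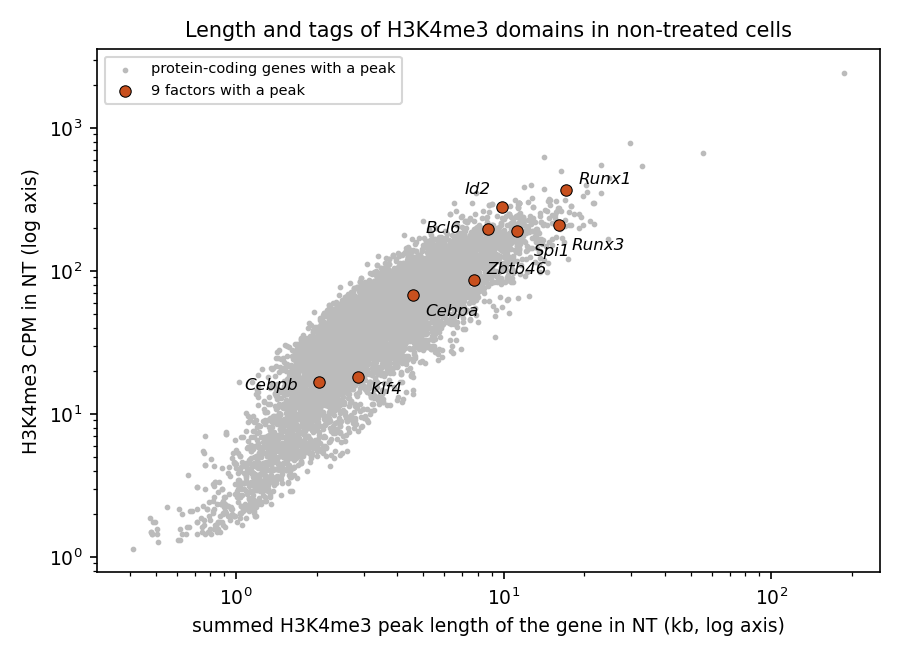
Summed H3K4me3 peak length in kb (horizontal, log axis) against CPM (vertical, log axis) in NT for all 11500 protein-coding genes with a peak (grey) and for the 9 factors with a peak (orange). Runx1, Runx3, Id2, Spi1 and Bcl6 sit at the upper right, between 191 and 369 CPM, and Cebpb and Klf4 at the lower left, at 16.8 and 18.0.

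In NT the order of the CPM levels was Runx1 (369), Id2 (280), Runx3 (209), Bcl6 (195), Spi1 (191), Zbtb46 (86.2), Cebpa (67.3), Klf4 (18.0) and Cebpb (16.8). The counting intervals of Bcl6 (189 to 202) and Spi1 (185 to 198) overlapped, as did those of Klf4 (16.0 to 20.2) and Cebpb (14.9 to 18.9). Those of Runx3 (202 to 216) and Bcl6 overlapped narrowly, and those of the other neighbours in the order did not. The Bcl6 value leaves out its farthest upstream peak. With its peaks joined, Bcl6 carried 213 CPM in NT and would stand above Runx3, so their order depends on how peaks were divided.

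**Figure D3:**
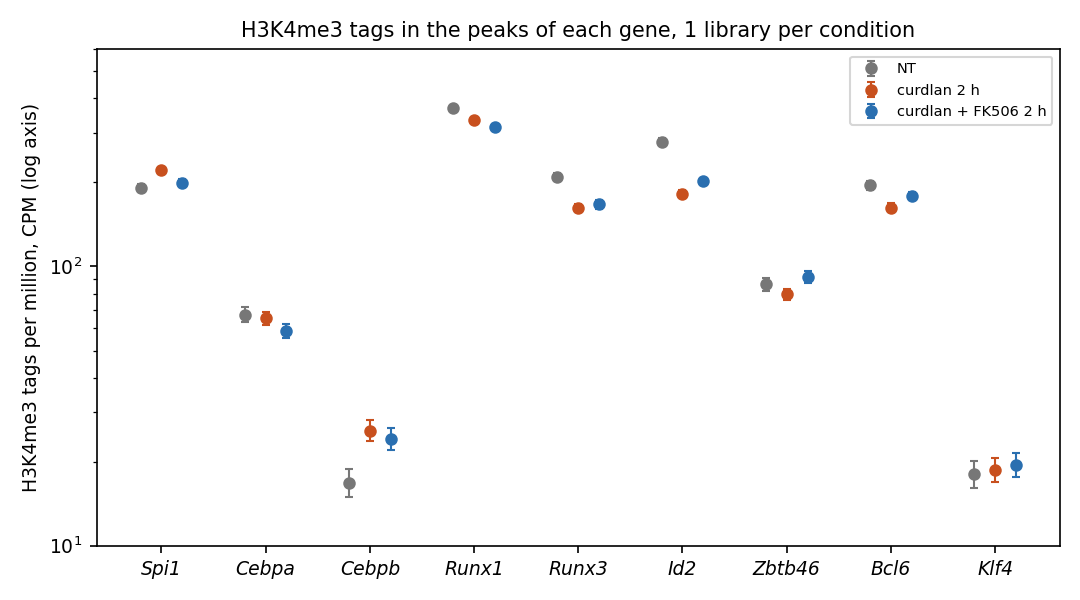
H3K4me3 tags as CPM (vertical, log axis) in the peaks of each factor in NT (grey), curdlan (orange) and curdlan with FK506 (blue), 1 library each, with 95% Poisson intervals that cover counting error only. Cebpb is higher in both curdlan libraries (25.8 and 24.1) than in NT (16.8), and Id2 is lower in both (182 and 202) than in NT (280). The levels are not centred on all genes.

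Spi1 carried 191 CPM in NT, 221 after curdlan and 199 with FK506, over 11.2, 13.6 and 12.5 kb. Most of this lay in a peak at the second group of start sites, with 169, 202 and 183 CPM. The peak at the first start sites, which contains NFATc2 site 2, was far weaker at 22.0, 18.8 and 15.9, and after curdlan its false discovery rate in the deposited list was 12.99%.

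The C/EBP genes were marked more modestly. Cebpa, a master factor of myeloid commitment, had 67.3, 65.2 and 58.9 CPM in a pair of peaks around its TSS with a summed length of 4.56, 5.36 and 4.74 kb. Cebpb, an inflammation-responsive relative, had 16.8 (14.9 to 18.9), 25.8 (23.7 to 28.1) and 24.1 (22.0 to 26.4), and both curdlan libraries lay above NT without overlap of the intervals. Its peak was 2.04 kb long in NT and 3.06 and 2.76 kb in the curdlan libraries, while the CPM per kb of peak were 8.23, 8.45 and 8.74. The Cebpb peak began 682, 636 and 350 bp downstream of the TSS in the 3 lists, did not cover the TSS in any of them, and overlapped the annotated genes A530013C23Rik and Tmem189 as well.

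Runx1 and Runx3 each have a distal and a proximal promoter, and the mark was divided between them in opposite proportions. At Runx1 the proximal start sites carried 281, 255 and 245 CPM in NT, curdlan and curdlan with FK506, and the distal ones 79.4, 79.5 and 71.7. At Runx3 the distal start carried 174, 124 and 128, and the proximal ones 34.9, 25.7 and 28.7. Both curdlan lists split the distal domain, and its downstream piece is not in these values. Joined across the gap, the distal domain carried 174, 136 and 138 CPM. Runx1 was the most heavily marked of the 9, with 369, 334 and 317 CPM over 17.1, 15.2 and 14.9 kb. A weak intronic peak of Runx1 with 145 tags was listed in NT only. Runx3 had 209, 162 and 167 CPM over 16.1, 15.0 and 15.1 kb, and its distal peak in NT, 12.7 kb long, was longer than over 99.9% of all peaks in that list.

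Tcf4 and its inhibitor Id2 differed in the mark. No H3K4me3 peak was listed at any of the 14 start sites or in the body of Tcf4 in any condition, and the nearest peak was 392, 787 and 752 kb away. The lists hold only called peaks, the smallest with 18, 26 and 23 tags, so a level below calling is not excluded. Id2 carried 280, 182 and 202 CPM in a single peak of 9.85, 10.1 and 10.1 kb over a gene of 2.29 kb. The peak was longer than 99.8%, 99.6% and 99.7% of all peaks, and in NT its density, 28.4 CPM per kb, was at the 99.1st percentile of protein-coding genes.

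Zbtb46, which marks the committed conventional dendritic lineage, had 86.2, 79.4 and 91.7 CPM. Its peaks flanked the annotated TSS, and an intronic peak of 224 tags in NT and 225 tags with FK506, where its false discovery rate was 10.69%, was not listed after curdlan alone. Bcl6, a repressor needed by conventional dendritic cells, had 195, 163 and 180 CPM over 8.70, 11.3 and 11.3 kb. The shorter length in NT came from how the domain was divided: NT had 3 neighbouring peaks, of which the farthest upstream lay over 1 kb from the TSS and was not counted, whereas both curdlan lists had a single peak. Joined across the gaps, the domain was 11.5 kb in NT, 11.3 kb after curdlan and 11.3 kb with FK506, and the CPM were 213, 163 and 180. The NFATc2 site lay inside this domain in all 3. The Runx3 domain was divided the other way, as a single peak in NT and as peaks of 8.02 and 3.41 kb after curdlan, with a joined length of 12.7, 11.6 and 11.4 kb.

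**Figure D4:**
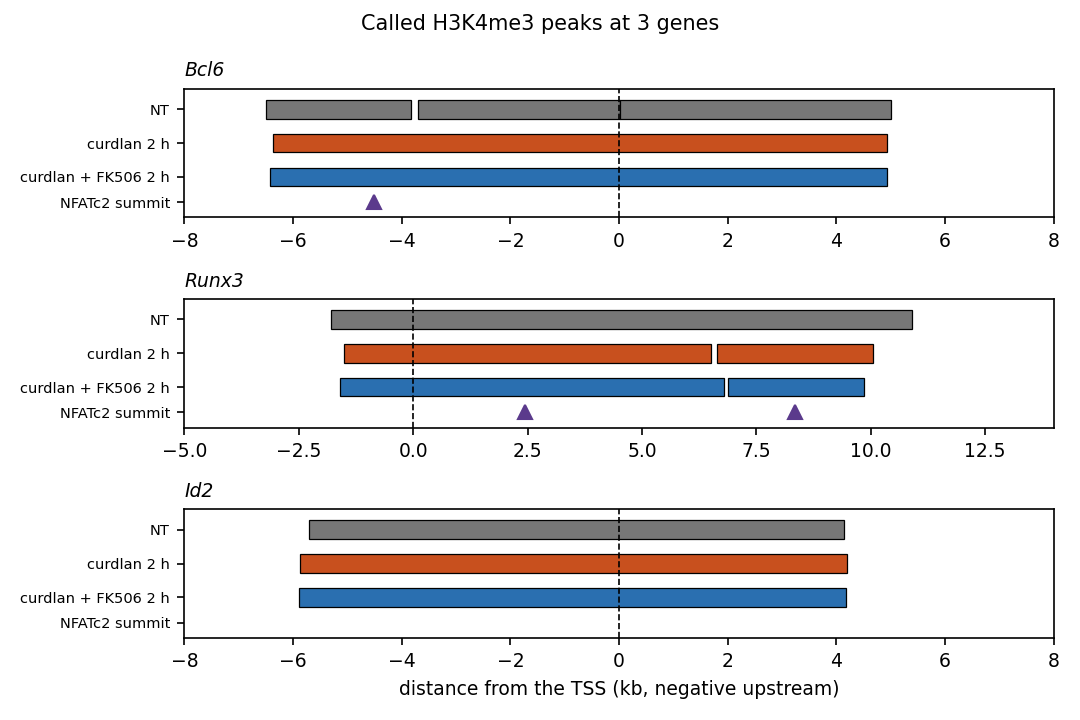
Called H3K4me3 peaks (bars) at Bcl6, Runx3 and Id2 in the 3 conditions and NFATc2 summits (triangles), by distance in kb from the TSS (dashed line; the distal TSS for Runx3). The Bcl6 domain is called as 3 peaks in NT and as 1 in the others, the Runx3 domain as 1 in NT and as a pair in the others, and the outer edges stay close.

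Klf4, a monocyte-associated zinc finger factor, was the least marked after Cebpb in NT and the least marked of the 9 in both curdlan libraries, at 18.0, 18.7 and 19.5 CPM. The intervals overlapped (16.0 to 20.2, 16.9 to 20.6 and 17.6 to 21.5). Its 2 peaks summed to 2.86, 3.80 and 3.65 kb.

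The comparison of curdlan with NT asks how the mark moved with dectin-1 activation. Ratios of CPM were centred on the median over the 13019 genes with a peak in both lists, which was -0.13 on the log2 scale, and a gene was called when it was past 1.5-fold after centring. Cebpb was called higher, at 1.68-fold (counting interval 1.46 to 1.95), and none of the 9 was called lower. Over all genes 3.77% were called higher and 1.87% lower, and 1 gene of 9 is too few to be set apart from these shares. By CPM per kb the Cebpb log2 difference was 0.22 and not past 1.5-fold, as the peak was longer at a nearly equal density, while by the highest fold enrichment it was 1.02. Id2 had the lowest value, a log2 difference of -0.49 (interval -0.55 to -0.42), at the 3.09th percentile of protein-coding genes. Without centring it was -0.62 and past 1.5-fold, and by fold enrichment it was 0.34, in the other direction. Spi1 stood at 0.34 (0.28 to 0.41), with -0.20 by fold enrichment, and Runx3 at -0.23 (-0.30 to -0.17). Bcl6 stood at -0.13, or -0.26 with its peaks joined. Runx1, Cebpa, Zbtb46 and Klf4 were between -0.01 and 0.19, and their intervals included 0. The Zbtb46 value depended on the measure. It was 0.25 with only peaks within 1 kb of a TSS, 0.49 by CPM per kb and -0.17 by fold enrichment.

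The comparison of curdlan with FK506 against curdlan alone addresses the effect of calcineurin inhibition on the mark, with a median of -0.04 over all genes. None of the 9 passed 1.5-fold, where 0.592% of all genes were called higher and 1.45% lower. The log2 differences ran from -0.11 at Spi1 to 0.25 at Zbtb46, where the intronic peak was listed again. Neither end was stable: Spi1 stood at 0.02 with only peaks at a false discovery rate of 5% or less and at 0.13 by fold enrichment, and Zbtb46 at 0.06 with only peaks within 1 kb of a TSS and at -0.29 by CPM per kb. Cebpb stood at -0.05 (interval -0.24 to 0.13), Id2 at 0.19 (0.12 to 0.25), Bcl6 at 0.19 (0.12 to 0.25) and Runx3 at 0.09 (0.02 to 0.16). By fold enrichment, a measure by which 27.8% of all genes passed 1.5-fold, Cebpb (-0.82) was lower and Klf4 (0.79) higher, and Zbtb46 (-0.54), Id2 (-0.21) and Bcl6 (-0.06) had the opposite sign to that by CPM. Both comparisons share the curdlan library, so opposite signs in them are not independent.

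**Figure D5:**
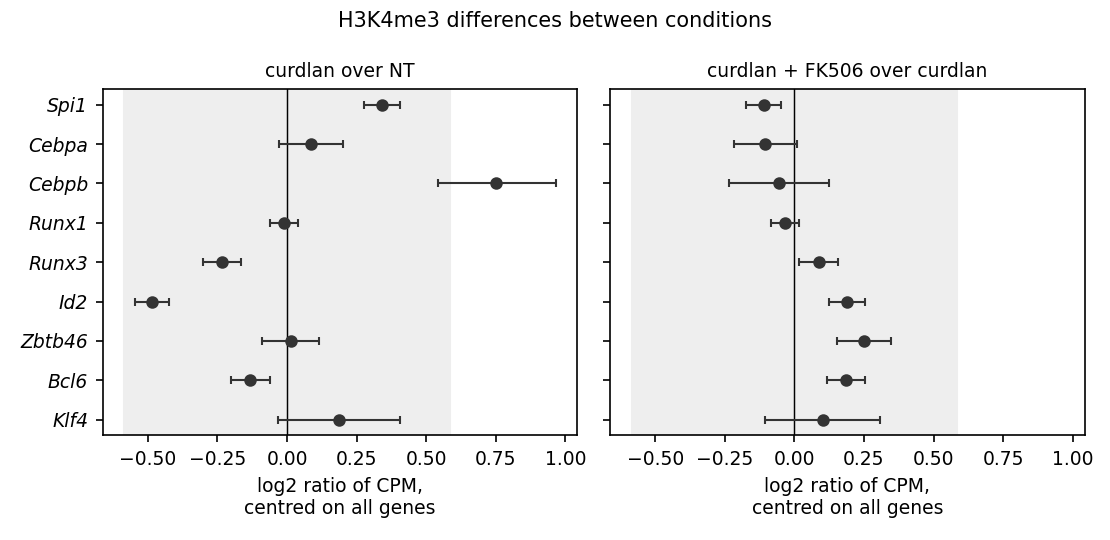
Centred log2 ratios of H3K4me3 CPM for the 9 factors with a peak, curdlan over NT (left) and curdlan with FK506 over curdlan (right), with 95% counting intervals; the grey band is less than 1.5-fold. Only Cebpb at left (0.75) lies outside the band, and every value at right lies between -0.11 and 0.25.

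Between curdlan with FK506 and NT, where the median over all genes was -0.18, Cebpb was again the only factor called, at 1.63-fold (log2 interval 0.49 to 0.92), against 3.02% of all genes called higher and 1.95% lower. By CPM per kb its log2 difference was 0.28 and without centring 0.52, both short of 1.5-fold. Id2 stood at -0.29 (-0.36 to -0.23) on the log2 scale, and at 0.13 by fold enrichment.

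By median, the factors with NFATc2 sites were the more heavily marked. The 6 with at least 1 site had a median of 202 CPM in NT and the 3 marked factors without a site 67.3, although Cebpb, with 3 sites, had the lowest level. Over protein-coding genes with a peak, those with at least 1 site had a median of 51.0 and those without 38.5. Spearman's rank correlation between the number of sites and CPM was 0.54 in NT, 0.71 after curdlan and 0.65 with FK506 over the 9 factors, and 0.23, 0.24 and 0.23 over protein-coding genes. With 9 factors there are too few to set their correlations apart from those over protein-coding genes. The number of sites and the CPM are both summed over all start sites of a gene, so they share the annotation. The NFATc2 and H3K4me3 libraries came from different cells and times.

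A wider list of 43 further regulators of dendritic and myeloid cells gives the surroundings. A domain was listed at 38 of them in each condition (88.4%), and none at Spic, Cebpe, Tfec, Myb and Tal1. Their median was 87.6 CPM in NT, below the 191 of the 9 factors and above the 47.1 of protein-coding genes. NFATc2 had a site within 100 kb of 38 of the 43 (88.4%, against 55.3% of protein-coding genes), with a median of 3 and at most 11. Sites were more common near marked genes in general: 8476 of the 11500 protein-coding genes with an NT domain had at least 1. Window widths were not adjusted for in this list, so the difference cannot be assigned to the role of the genes. After curdlan 3 of the 38 were called higher and 0 lower, against 3.77% and 1.87% of all genes: Irf8, which directs conventional type 1 dendritic cells, had 29.9 CPM in NT and 46.6 after curdlan (1.71-fold), Batf, an AP-1 family partner of the IRF factors, had 47.2 and 66.0 (1.53-fold), and Zeb2, a repressor expressed in myeloid cells, had 52.2 and 72.5 (1.52-fold). Without centring only Irf8 of the 38 passed, and by CPM per kb 0 did. With FK506 Irf8, Batf and Zeb2 stood at 48.1, 63.0 and 70.9 CPM, and none of the 38 passed 1.5-fold against curdlan. Irf4 had 168, 201 and 226 CPM and, after centring, was past 1.5-fold (1.53) only between curdlan with FK506 and NT. In that comparison 4 of the 38 were called higher (Irf8, Batf, Zeb2 and Irf4) and 0 lower, against 3.02% and 1.95% of all genes. For Irf4 the log2 difference there was 0.61, but 0.43 without centring, short of 1.5-fold, and -0.51 by CPM per kb, in the other direction. Of 10 regulators of other lineages, 2 had a domain, Gata3 (124 CPM in NT) and Pax5 (12.1).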

How the data were processed

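NFATc2-V5 and H3K4me3 ChIP DNA was sequenced by the authors as single-end reads, mapped to mm9 with bowtie 1, and compared with input using MACS, version 1.4.2 in the file headers, with a p-value threshold of 1e-05 and duplicates removed. Each of the 4 deposited lists gives the count of tags per peak, a multiple of the −log10 p-value, the fold enrichment (a ratio over input) and a false discovery rate in percent. The MACS p-values compare ChIP with input within a library, never conditions.

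Tags in the peaks of a gene were summed and expressed per 1000000 ChIP tags of the library (CPM). Levels in CPM were not adjusted for the share of tags in peaks, which differed between conditions. Log2 ratios between conditions have 95% conditional binomial intervals, and levels exact Poisson intervals. Reads carry no molecular identifiers, so intervals cover counting error only. Start sites within 2 kb of each other formed a start group. All 80 symbols of the lists were matched, 2 by an older symbol. The 10 factors are named throughout, and of the wider list the genes past 1.5-fold with at least 50 tags and those with no peak. The members and lists were chosen with earlier results of these data known. The scripts ran under samtools 1.23.1, pysam 0.24.0, scipy 1.17.1, pandas 2.3.3 and Python 3.11.15 and were tested on simulated data. Of the markers listed 1 gene, and of the sequences chosen for display 1, are not reported here.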

Additional observations from a re-analysis of the deposited data

How the results depend on the processing

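No paired analysis was possible because each condition has 1 library, and leaving out a replicate was impossible for the same reason. Of the 23 NFATc2 sites, 11 lay within 20 kb and 13 stood at p of 1e-10 or less. The share of all NFATc2 sites at that p-value is not given, so the 13 cannot be set against it. Median domain length, 8.70, 10.1 and 10.1 kb in NT, curdlan and curdlan with FK506, was 4.98, 8.02 and 8.40 kb for the longest single peak, 8.75 kb after curdlan at a false discovery rate of 5% or less, and 9.85 kb in NT with peaks joined. For curdlan over NT, 1 factor was called, against 5.65% of all genes. The count was 2 without centring, 0 by CPM per kb and 0 at a fold of 2. Over all genes 6.54%, 3.01% and 1.77% passed in these settings. Of the wider list 3 were called, then 1, 0 and 0 in the same settings. By fold enrichment 14 of the wider list were called, where 28.2% of all genes passed. For curdlan with FK506 over curdlan, fold enrichment gave 2 factors and 10 of the wider list against 0 and 0. By that measure 27.8% of all genes passed. For curdlan with FK506 over NT, the 1 call became 0 without centring, 0 by CPM per kb and 0 at a fold of 2, and by fold enrichment the 1 factor called was Zbtb46, lower. Of the alternatives for single factors, 124 moved by less than the counting interval and 65 by more. The 124 include every ratio scaled to tags in peaks. Centring cancels that scale, so those ratios could not move and say nothing about stability. Joining peaks and scaling to tags in peaks were chosen after seeing the data. The cause of these shifts was not tested.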
